A study of Mus musculus with 4 samples.

Results

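The kinesin family was read from 4 two-colour Agilent mouse arrays that set RNA of cybrid fibroblasts named LMEB3 with C57BL/6J mitochondria (mtB6, the control) against RNA of LMEB3 cybrids with BALB/cJ mitochondria (mtBALB, called mutant in the labels). A cybrid holds donor mitochondria in a recipient cell freed of its own mitochondrial DNA, so that the lines were made to differ in mitochondrial genotype. Each array carried 1 culture of each line with the same replicate number, all at passage 3 and in the same serum-supplemented high-glucose medium. On replicates 1 and 3 the mtB6 RNA carried Cy5, and on replicates 2 and 4 the mtBALB RNA did. The title mentions independent clones, and the labels do not say which replicate came from which clone, so that the spread between arrays may hold clone differences, culture differences or technical error.

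Members were the genes whose symbol in the platform annotation is Kif with a number, Kifc1 to Kifc3 or Kifap3. The rule found 36 of 19088 genes, on 79 of 45220 spots. Of 11 kinesins that the rule counts as mitotic, 9 were measured (Kif2c, Kif4, Kif11, Kif15, Kif18a, Kif20a, Kif20b, Kif22 and Kif23), while Kif14 and Kifc1 were not analysed here. The other 27 members are mostly motors of cargo transport and regulators of microtubules and cilia. The rule uses names alone, but the members were proposed with results of these arrays known.

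Kinesins are motor proteins that bind microtubules and hydrolyse ATP. Mitotic kinesins build the spindle, move and align chromosomes, and organise the midzone that splits a dividing cell, and their transcripts are made mainly in the late cell cycle. Transport kinesins carry vesicles, organelles such as mitochondria, and building blocks of cilia through cells that need not divide.

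The values are the authors' deposited log ratios of the 2 lines on each array, taken as log2 and centred near 0, with the spots of a gene averaged. They hold no expression level, so the members cannot be ranked by abundance. The ratios were assumed to have 1 direction on all arrays, which no source states. Neither labels nor values tell which line is the numerator, and a sign here names a side of the ratio without saying which line had more transcript. A spot is called dim where at least 3 spots of an array share its exact value, as low whole-number signals would; brightness itself was not measured. All 9 mitotic kinesins had at least 1 spot that was never dim, against 16 of 27 other kinesins and 9774 of 19088 genes. Pearson's r between arrays lay between -0.19 and 0.05 over genes, which are not independent replicates. Of the fibroblast markers listed, 6 of 8 had a never dim spot, against 0 of 4 epithelial and 0 of 3 ciliary markers, 2 of 4 leukocyte and 2 of 5 neuronal markers. The fibroblast markers had list means of 0.45, -0.14, 0.07 and 0.12 on replicates 1 to 4, so that their highest array was replicate 1, as for the mitotic kinesins. The leukocyte markers had list means of -0.13, -0.13, -0.09 and -0.10. Of the 4, Lyz2 and Tyrobp were negative on every array, while Ptprc and Itgam had mixed signs and no never dim spot. At an unadjusted p under 0.05 in limma were the collagen gene Col1a1, with 2.51, -0.02, 0.84 and 1.12, and, negative on all 4 arrays, the fibroblast marker Pdgfrb (mean -0.47) and the leukocyte marker Lyz2 (mean -0.32). These 3 were chosen after their values were seen, and the part of such differences in the kinesin values was not tested.

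Mitotic kinesins lay mostly on the positive side of the ratio, and the other kinesins were spread around 0. Of the 9 mitotic kinesins, 8 had a positive mean over the 4 arrays, against 13 of the 27 others, 49.5% of all genes and 47.1% of genes with a never dim spot. The median of the gene means was 0.13 for mitotic kinesins, -0.01 for the others and -0.00 for all genes (log2 ratios). No kinesin passed the test across all genes: limma called 0 of 36 at an adjusted p of 0.05, as it called 0 (0%) of 19088 genes. At an unadjusted p under 0.05 there were 2 kinesins, Kif20a and Kif18a, which are mitotic and positive, where 1.59% of all genes were positive and under that p and 2.05% were negative and under it. Of the 9774 genes with a never dim spot, 265 were positive and under it and 334 were negative and under it. The 95% intervals of the kinesins reached a median of 0.21 to either side of the mean log2 ratio.

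**Figure D1:**
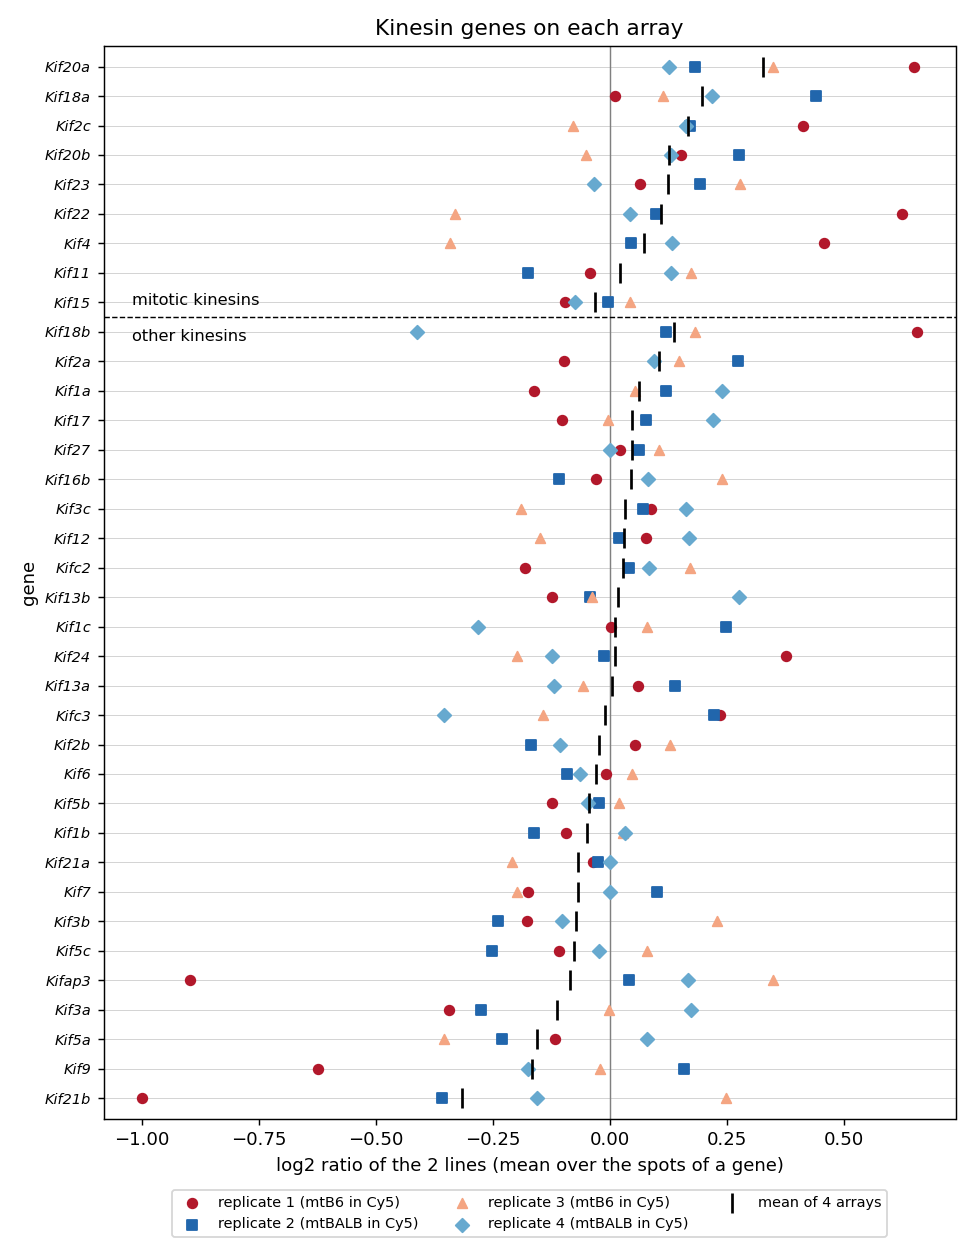
Log2 ratio of the 2 lines (x axis) of each kinesin gene (y axis) on each of the 4 arrays, with mitotic kinesins above the dashed line and other kinesins under it, each set ordered by the mean of the 4 arrays (black bar). Kif20a and Kif18a are right of 0 on every array, and Kif21b and Kifap3 lie at -0.998 and -0.90 on replicate 1.

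The mean of the mitotic kinesins was 0.25, 0.14, 0.02 and 0.09 on the arrays in replicate order, or 0.12 ± 0.10 (SD over arrays, n = 4). It was above 0 on every array, and near 0 on replicate 3. For the other kinesins the values were -0.10, -0.01, 0.02 and -0.01 over replicates 1 to 4, or -0.03 ± 0.05 (SD, n = 4). The difference between the list means, mitotic minus other, was 0.35, 0.15, -0.00 and 0.10 on arrays 1 to 4, with a mean of 0.15 ± 0.15 (SD, n = 4). It averaged 0.18 on the arrays with mtB6 in Cy5 and 0.12 on those with mtBALB in Cy5. Since the members were not picked blind to these arrays, the lists were given no p-value. The average over arrays leans on single pairs. Without replicate 1 the fitted mean was 0.07 for mitotic and 0.01 for other kinesins, a difference of 0.06. Without replicate 3 the difference was 0.24. These fits kept the dye term, so the array left alone in its orientation weighed as much as the 2 others together. In RNA of whole cultures, a different share of dividing cells and a different transcript level per cell cannot be told apart.

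Other genes of the cell cycle had list means of like sign on the same arrays. Their list too was chosen with earlier results of these data known, so its counts are a description and not separate support. The 19 measured proliferation genes of a list with DNA replication factors and cyclins had list means of 0.48, 0.11, 0.10 and 0.09 on replicates 1 to 4. A positive mean was found for 17 of them, where 49.5% of all genes and 47.1% of genes with a never dim spot had one. The mean over arrays was 0.20, or 0.10 without replicate 1 and 0.09 with the sign of replicates 2 and 4 turned. With that sign turned, 15 of the 19 were positive, and so were 51.3% of all genes and 5250 of 9774 genes with a never dim spot. The part of a different rate of division in the kinesin values was not tested.

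**Figure D2:**
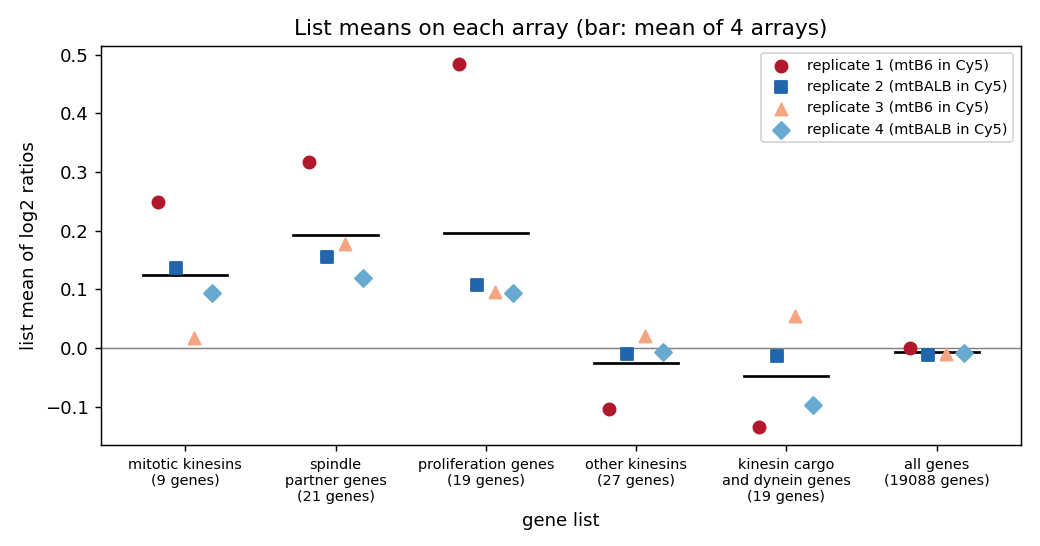
Mean log2 ratio (y axis) over the genes of each list (x axis) on each of the 4 arrays, with a bar at the mean of the arrays. The mitotic kinesins, spindle partners and proliferation genes are above 0 on all 4 arrays, with their highest value on replicate 1, while the other kinesins are at -0.10 on replicate 1 and between -0.01 and 0.02 on the rest.

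Among motors of the spindle midzone and cytokinesis, Kif20a, which carries the chromosomal passenger complex to the midzone, had log2 ratios of 0.65, 0.18, 0.35 and 0.13 on replicates 1 to 4. It was positive on every array, as were 4.37% of all genes. Its mean was 0.33 ± 0.24 (SD, n = 4), with a 95% interval of 0.12 to 0.53 and an unadjusted p of 0.0107 in limma (adjusted p = 0.9997). Its 2 spots lay within 0.03 of each other on every array. Kif23, the motor subunit of centralspindlin, had 0.06, 0.19, 0.28 and -0.03, a mean of 0.13 ± 0.14 (unadjusted p = 0.172 in limma). The ratio of Kif23 was positive on 3 arrays and near 0 on replicate 4. Kif20b, a motor of abscission, had 0.15, 0.28, -0.05 and 0.13, a mean of 0.13 ± 0.14 (unadjusted p = 0.138 in limma). The 3 spots of Kif20b, all never dim, disagreed on replicate 3, at -0.21, -0.33 and 0.39. Kif4, a chromokinesin that also works at the midzone, had 0.46, 0.05, -0.34 and 0.13, a mean of 0.07 ± 0.33.

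Of the 9 mitotic kinesins, Kif22 and Kif4 had the largest SDs over the arrays. Kif22, a chromokinesin that binds DNA and pushes chromosome arms, had 0.62, 0.10, -0.33 and 0.04 over replicates 1 to 4, a mean of 0.11 ± 0.39. Kif22 and Kif4 were among the highest genes on replicate 1, where 97.6% and 95.2% of genes were lower, and among the lowest on replicate 3, where 9.09% and 8.64% were lower. Replicates 1 and 3 have the same dye orientation, so the orientation does not separate these values. The 2 spots of Kif4 gave the same sign on each array, 0.42 and 0.50 on replicate 1 and -0.32 and -0.36 on replicate 3. Kif2c, the microtubule depolymerase of centromeres, had 0.41, 0.17, -0.08 and 0.16, a mean of 0.17 ± 0.20 (unadjusted p = 0.166 in limma). Together with Kif20b, these were 4 of 9 mitotic kinesins with a positive value on replicates 1, 2 and 4 and a negative one on replicate 3, a pattern noticed in the data that 6.15% of all genes had, 6.53% of genes with a never dim spot and 4 of 19 proliferation genes. Pseudogenes of Kif4 and Kif22 are listed in RefSeq, and whether their transcripts reach these probes was not tested. Without replicate 1 the fitted means of Kif4 and Kif22 were -0.13 and -0.13, with replicate 3 weighing as much as replicates 2 and 4 together.

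Kif18a, which dampens the movements of chromosomes at the ends of kinetochore microtubules, had 0.01, 0.44, 0.12 and 0.22 on replicates 1 to 4. It was positive on every array and near 0 on replicate 1, unlike Kif20a, whose highest value was there. The mean of Kif18a was 0.20 ± 0.18 (SD, n = 4), with a 95% interval of 0.01 to 0.38 and an unadjusted p of 0.0431 in limma (adjusted p = 0.9997). Its never dim spot averaged 0.31 over the arrays and its spot dim on all 4 arrays averaged 0.09. The dim spot was negative on replicates 1 and 3, at -0.07 and -0.11, where the never dim spot had 0.09 and 0.34. The single sign of Kif18a thus holds for the average of its spots and for the never dim spot. With never dim spots only, or with no dye term, Kif18a had an unadjusted p above 0.05 in limma, at 0.0523 and 0.0725. Leaving out any single array gave unadjusted limma values of 0.0567 to 0.191 for Kif18a, and for Kif20a 0.0632 without replicate 2 and 0.0514 without replicate 4.

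The motors that push spindle poles apart lay near 0. Kif11, the bipolar motor that is the target of many antimitotic compounds, had -0.04, -0.17, 0.17 and 0.13, a mean of 0.02 ± 0.16. The 3 spots of Kif11 disagreed, with means of 0.20 for the never dim spot, 0.11 for a spot dim on 3 arrays and -0.24 for a spot dim on 4. Kif15, which can take over from Kif11, had -0.09, -0.00, 0.04 and -0.07, a mean of -0.03 ± 0.06, and was the mitotic kinesin with a negative mean. Its values average 3 spots that shared a sign on 0 of 4 arrays. The never dim spot of Kif15 had -0.15, 0.26, -0.35 and -0.16, a mean of -0.10. The 95% interval of Kif11 ran from -0.21 to 0.25 and that of Kif15 from -0.20 to 0.13. In the order of means from Kif20a to Kif15, neighbours had intervals that overlapped.

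**Figure D3:**
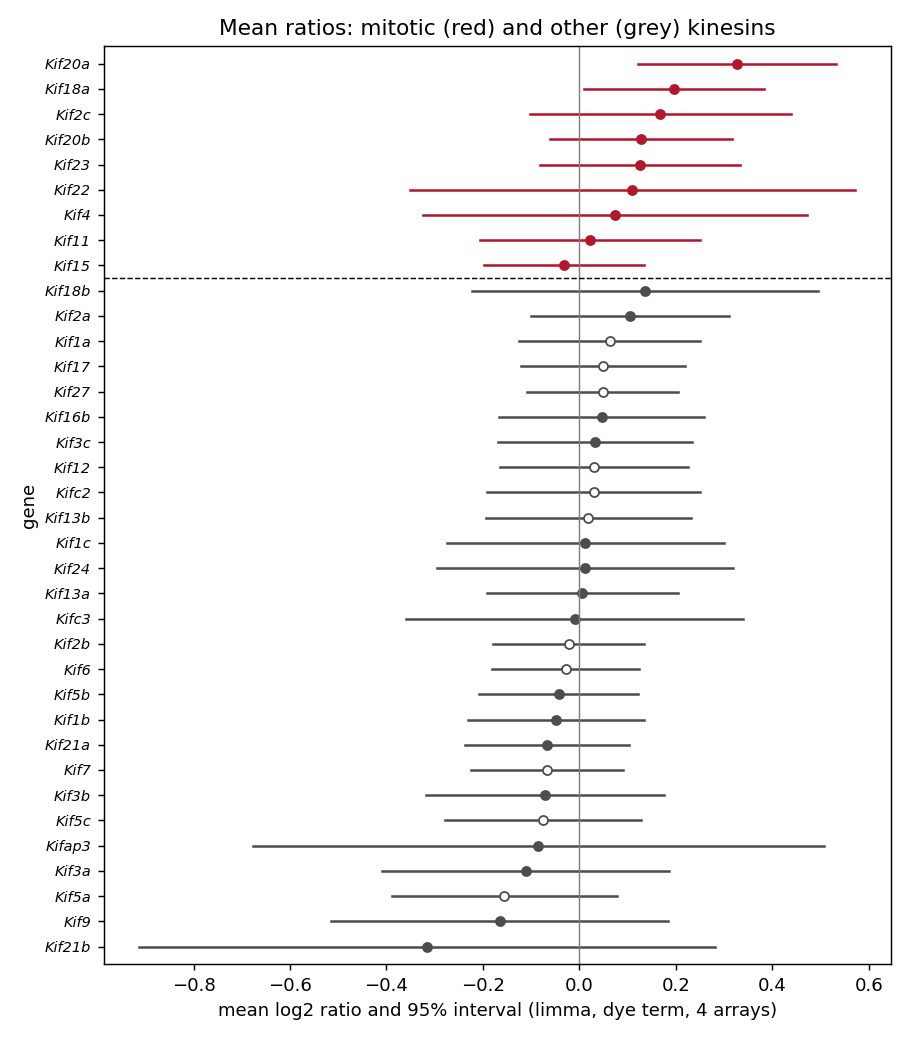
Mean log2 ratio (x axis) of each kinesin gene (y axis) with its 95% interval from limma over 4 arrays, mitotic kinesins in red and others in grey. Filled points are genes with a never dim spot and open points are genes without one. The intervals of Kif20a and Kif18a lie above 0, and every other interval contains 0.

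The promoters of mitotic kinesins are shown because 8 of the 9 measured had a positive mean. In mammalian cells many genes of the late cell cycle carry a cell cycle homology region, with the core TTTGAA, near their start, often beside CCAAT boxes that bind NF-Y. In RefSeq promoters (GRCm38.p6, 250 bases before to 50 after each gene start), 29 of 36 members were found. They include 8 mitotic kinesins, all measured ones but Kif20a. TTTGAA on either strand was in 7 of the 8 mitotic promoters, in 3 of 25 promoters of other kinesins and in 17.9% of all 32851 promoters. CCAAT on either strand was in 4 of 8, in 10 of 25 and in 37.4% of all. The 3 other kinesins with TTTGAA were Kif18b, Kif1a and Kif27. Of the promoters printed, Kif4 and Kif22 swung together between pairs, Kif23 was positive on 3 arrays, and Kif18a, positive on every array, had neither motif in this window. Capitals mark TTTGAA and CCAAT or their reverse complements, TTCAAA and ATTGG, none of which overlapped here. A match is a description and not a shown binding site.
Kif4 (chrX:100625815-100626114, + strand): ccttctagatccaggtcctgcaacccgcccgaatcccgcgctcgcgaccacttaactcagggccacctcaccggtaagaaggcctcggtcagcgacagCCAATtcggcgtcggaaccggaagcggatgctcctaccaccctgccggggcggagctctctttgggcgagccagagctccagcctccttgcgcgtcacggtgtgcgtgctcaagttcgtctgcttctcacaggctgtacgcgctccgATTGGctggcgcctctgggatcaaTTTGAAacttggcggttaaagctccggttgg
Kif22 (chr7:127042371-127042670, - strand): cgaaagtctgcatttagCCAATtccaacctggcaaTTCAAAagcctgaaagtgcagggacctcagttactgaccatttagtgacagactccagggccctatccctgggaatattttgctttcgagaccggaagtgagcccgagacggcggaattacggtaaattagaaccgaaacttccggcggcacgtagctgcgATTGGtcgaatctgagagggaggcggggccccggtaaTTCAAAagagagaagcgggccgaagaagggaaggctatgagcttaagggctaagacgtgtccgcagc
Kif23 (chr9:61946750-61947049, - strand): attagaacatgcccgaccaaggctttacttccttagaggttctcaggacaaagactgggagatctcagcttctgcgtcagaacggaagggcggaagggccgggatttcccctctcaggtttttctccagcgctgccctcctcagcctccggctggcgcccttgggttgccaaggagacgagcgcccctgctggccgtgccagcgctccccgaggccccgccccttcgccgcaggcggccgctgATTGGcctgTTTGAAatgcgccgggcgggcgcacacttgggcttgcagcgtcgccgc
Kif18a (chr2:109280488-109280787, + strand): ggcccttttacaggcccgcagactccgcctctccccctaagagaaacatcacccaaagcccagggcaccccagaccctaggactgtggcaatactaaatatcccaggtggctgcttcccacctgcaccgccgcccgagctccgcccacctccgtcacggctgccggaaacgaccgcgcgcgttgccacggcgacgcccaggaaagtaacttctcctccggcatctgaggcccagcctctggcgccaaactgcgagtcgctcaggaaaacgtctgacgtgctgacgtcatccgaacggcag

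Counted from the gene start, where the first transcribed base is 1, the nearest match of TTTGAA began at base -17 in Kif22, 20 in Kif4 and 3 in Kif23. The window of Kif2c held a match that began at base -103. In Kif20b the nearest match began at base 8, and in Kif11 and Kif15 at base -19. Of these, Kif11 had a mean log2 ratio of 0.02 and Kif15 a negative one of -0.03. Whether the motif goes with the sign of the ratio was not tested.

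Spindle partners of the mitotic kinesins, taken from a list of 21 genes, lay on the positive side as well. The list was chosen with earlier results of these data known and was read on the same 4 arrays. Its counts are thus a description and not separate support for the kinesin values. Of these 21, 20 had a positive mean, 7 were positive on all 4 arrays and 5 had an unadjusted p under 0.05 in limma, all positive, against background shares of 49.5%, 4.37% and 1.59%. All 21 had a never dim spot. Of the 9774 genes with such a spot, 4605 had a positive mean, 465 were positive on all 4 arrays and 265 were positive and under that p. None passed the adjusted threshold. With the sign of replicates 2 and 4 turned, 14 of the 21 had a positive mean, where 51.3% of all genes did, and 2, Ect2 and Racgap1, had an unadjusted p under 0.05 in limma, where 4.73% of all genes were positive and under it. Of the 9774 genes with a never dim spot, 5250 were then positive and 562 were positive and under that p. Replicates 1 to 4 had list means of 0.32, 0.16, 0.18 and 0.12. Ect2, the exchange factor that centralspindlin brings to the midzone, had 0.61, 0.16, 0.48 and 0.09, a mean of 0.34 ± 0.25. Racgap1, which binds Kif23 in centralspindlin, had 0.62, -0.07, 0.32 and 0.06, a mean of 0.23 ± 0.30. It averaged -0.00 on replicates 2 and 4, and with no dye term its unadjusted p was 0.111 in limma. Prc1, the midzone crosslinker that recruits Kif4, had 0.27, 0.24, 0.22 and 0.63, a mean of 0.34 ± 0.20, with its highest value on an array where Kif4 had 0.13. Mad2l1, of the spindle checkpoint, had 0.34, 0.57, 0.78 and 0.42, a mean of 0.53 ± 0.19. The importin Kpna2, which binds Tpx2, had 0.44, 0.60, 0.41 and 0.37, a mean of 0.46 ± 0.10 with values of like size on all 4 arrays. Tpx2, a spindle assembly factor that binds Kif11, had 0.54, 0.08, -0.07 and 0.13, a mean of 0.17 ± 0.26. Cenpe, a kinetochore motor of the kinesin superfamily whose symbol lies outside the rule, had 0.02, 0.47, 0.24 and 0.15, a mean of 0.22 ± 0.19 (unadjusted p = 0.0613 in limma). Its values were positive on every array and lowest on replicate 1, as those of Kif18a were.

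Conventional kinesin, which carries mitochondria among other cargo, showed small negative means. Its ubiquitous heavy chain Kif5b had -0.12, -0.02, 0.02 and -0.05 over replicates 1 to 4, a mean of -0.04 ± 0.06 with a 95% interval of -0.21 to 0.12. The neuronal heavy chains Kif5a and Kif5c, which had no never dim spot, had means of -0.16 ± 0.18 and -0.08 ± 0.14. The 3 spots of Kif5c disagreed, with means of -0.28, 0.04 and 0.0065. Kif5a had -0.12, -0.23, -0.35 and 0.08, and its 2 spots had 1 sign on each array. The range of Kif5b, 0.14 between its highest and lowest array, was small: 2.37% of genes with a never dim spot had a lower SD. Even so its 2 spots differed on replicate 1, at 0.14 and -0.39.

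The heterotrimeric kinesin of cilia and vesicles pairs Kif3a with Kif3b or Kif3c and the non-motor subunit Kifap3. Kifap3 had -0.90, 0.04, 0.35 and 0.17 on replicates 1 to 4. Replicate 1 was far on the negative side, where 1.08% of genes were lower, and the other arrays were positive. The mean was -0.08 ± 0.56, and 91.7% of genes with a never dim spot had a lower SD. All 3 spots of Kifap3 were never dim and were negative on replicate 1, at -1.25, -0.98 and -0.45. Without replicate 1 the fitted mean turned to 0.23. Without replicate 3 it was -0.40, in a fit where replicate 1 weighed as much as the other arrays together. The motors did not share this pattern: Kif3a had -0.34, -0.27, -0.00 and 0.17, Kif3b had -0.18, -0.24, 0.23 and -0.10, and Kif3c had 0.09, 0.07, -0.19 and 0.16. Their means were -0.11 ± 0.24, -0.07 ± 0.21 and 0.03 ± 0.15. Kif17, a homodimeric relative, alternated in sign with the dye orientation (-0.10, 0.08, -0.00 and 0.22), as 21.3% of all genes did. Its spots were dim on all 4 arrays.

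Among vesicle and organelle motors, Kif1a and Kif1c had means of 0.06 ± 0.17 and 0.01 ± 0.22. The spots of Kif1a were dim on all 4 arrays, while Kif1c had 1 never dim spot. Kif1a had -0.16, 0.12, 0.05 and 0.24, and Kif1c had 0.00, 0.25, 0.08 and -0.28. Kif1b, for which a mitochondrial and a vesicle isoform are known in mouse, had a mean of -0.05 ± 0.09, but that mean joined spots that disagreed. On replicate 1 its spots listed under transcript NM_008441 had 0.22 and 0.46, the latter on a spot dim on 3 arrays, and those under NM_207682 had -0.37 and -0.68. On replicate 3 the first pair had -0.45 and -0.02 and the second had 0.04 and 0.54. The spots of the 2 transcripts thus lay on opposite sides of 0 on both arrays, and the signs were exchanged between them. On replicate 2 all 4 spots were negative, and on replicate 4 they lay between -0.17 and 0.33.

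**Figure D4:**
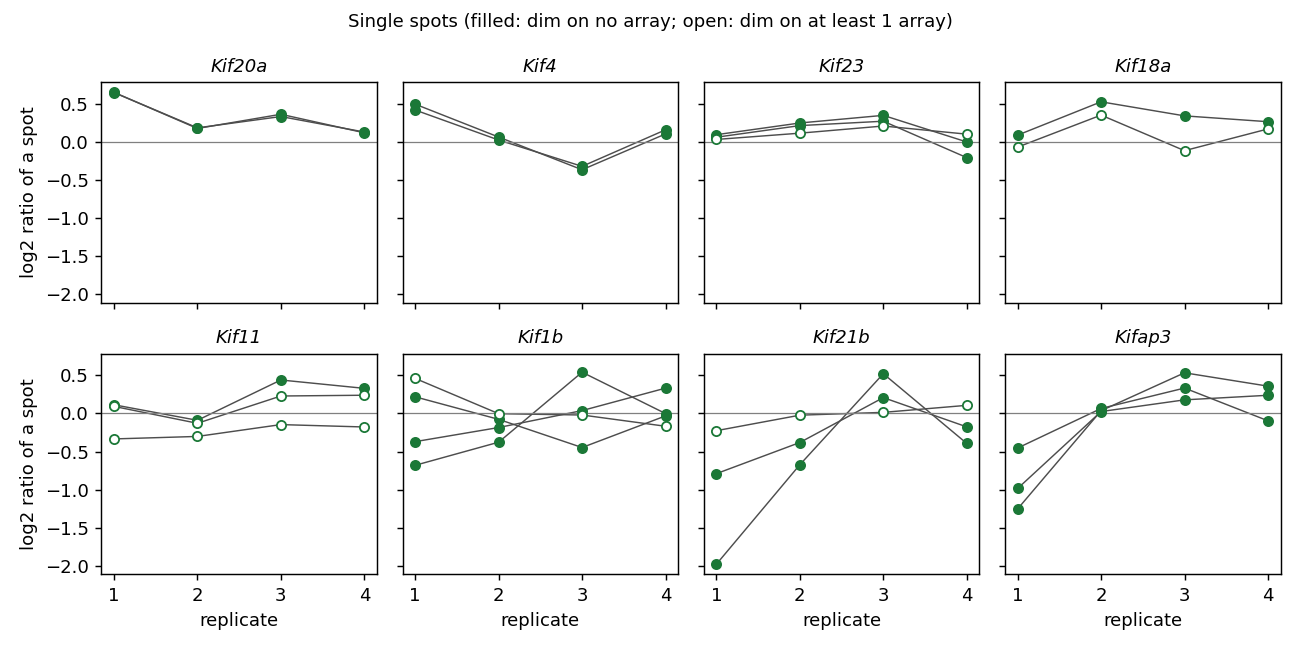
Log2 ratio of every spot (y axis) of 8 kinesin genes on replicates 1 to 4 (x axis); a line joins the values of 1 spot and implies no order of the replicates. Filled points are spots dim on no array. The spots of Kif20a and Kif4 coincide to within 0.08, the spots of Kif1b cross, and those of Kif21b fan out on replicate 1 from -0.23 to -1.98.

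The widest departures among the remaining kinesins were on replicate 1. Kif21b, a regulator of microtubule growth found in neurons and lymphocytes, had -0.998, -0.36, 0.25 and -0.15, a mean of -0.32 ± 0.52 (unadjusted p = 0.222 in limma). The fitted mean was -0.00 without replicate 1 and -0.06 with the sign of replicates 2 and 4 turned. It was -0.63 without replicate 3, in a fit where replicate 1 weighed as much as replicates 2 and 4 together. On replicate 1, 0.739% of genes were lower. Its spots shared a sign on replicates 1 to 3 but not a size, with -1.98, -0.79 and -0.23 on replicate 1. Kif9 had -0.62, 0.16, -0.02 and -0.17, a mean of -0.17 ± 0.34. Kif18b, a microtubule destabiliser of mitosis that the rule counts with the others, had 0.66, 0.12, 0.18 and -0.41, a mean of 0.14 ± 0.44 that became 0.02 without replicate 1 and 0.00 without replicate 2. Kif2a, a depolymerase of spindle poles and of neurites, had -0.10, 0.27, 0.15 and 0.10, a mean of 0.11 ± 0.15. In choices made after seeing the data, leaving Kif18b, Kif2a and Kif2b out of the others changed the difference between the classes from 0.15 to 0.16, and leaving out Kifap3 and Kif21b changed it to 0.14. Kif27, a paralog of the ciliary regulator Kif7, was positive on all 4 arrays at small values, 0.02, 0.06, 0.10 and 0.00, and its spots were dim on all 4. Kif7, Kif17 and Kif2b were the 3 kinesins whose signs alternated with the dye orientation, and no mitotic kinesin did so. Of all genes 21.3% alternated, and of the 9774 genes with a never dim spot 1509 did, so that few were to be looked for among the mitotic kinesins. The 11 members not yet given, Kif6, Kif7, Kif12, Kif13a, Kif13b, Kif16b, Kif21a, Kif24, Kif2b, Kifc2 and Kifc3, had means between -0.07 and 0.05.

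Counted by spot, 17 of 20 spots of mitotic kinesins had a positive mean and 24 of 59 spots of other kinesins did, where 49.4% of all spots with 1 gene did. Among never dim spots these were 13 of 14 and 8 of 27, where the share of all such spots was 47.7%. The never dim spots of other kinesins were thus mostly negative, while 13 of the 27 gene means were positive. With the sign of replicates 2 and 4 turned, 8 of the 14 and 10 of the 27 were positive. Spots of 1 gene share its transcript and are not independent. With never dim spots only, the mean was 0.15 for mitotic kinesins and -0.05 for the 16 other kinesins left. The array means of the mitotic kinesins were then 0.27, 0.19, 0.03 and 0.10.

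Genes that link kinesins to cargo, with light chains, mitochondrial adaptors, dynein and dynactin, had no stable side. Of 19 measured genes of a list of 20, 5 had a positive mean and 14 a negative one, where 50.5% of all genes were negative, and 0 had an unadjusted p under 0.05 in limma. Replicates 1 to 4 had list means of -0.13, -0.01, 0.05 and -0.10, so that replicate 3 lay on the positive side. The mean over arrays of -0.05 became -0.00 without replicate 1, -0.03 without replicate 4, -0.09 without replicate 3, -0.10 with never dim spots only and 0.01 with the sign of replicates 2 and 4 turned. Of the 19 genes, 12 had a positive mean without replicate 1 and 13 with the sign turned. The light chain Klc1 had -0.08, -0.04, 0.08 and -0.07, a mean of -0.03 ± 0.07. Trak1, which joins conventional kinesin to mitochondria, had -0.13, -0.22, 0.18 and -0.20, a mean of -0.09 ± 0.19. Rhot1, its anchor in the outer mitochondrial membrane, had -0.05, -0.08, 0.08 and 0.10, a mean of 0.01 ± 0.09. Klc4 had -0.79, -0.64, 0.33 and -0.13, a mean of -0.31 ± 0.51 that became -0.03 without replicate 1, -0.59 without replicate 3 and 0.08 with the sign of replicates 2 and 4 turned.

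The ratios were read as having 1 direction on all arrays. Were they instead dye ratios, the mean of the mitotic kinesins would be 0.01 and that of the others -0.02. Of the mitotic kinesins 6 of 9 and of the others 11 of 27 would then be positive, where 51.3% of all genes would be. At an unadjusted p under 0.05 in limma there would be 0 kinesins, where 902 positive and 812 negative of 19088 genes would be under it.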

How the data were processed

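The deposited values were log2 ratios of the 2 lines, 1 per spot and array. Per the submitters' processing notes the authors used limma, with no version, while background correction, normalization, filters, log base and numerator are stated in no source used here. The base was assumed to be 2. The ratios were taken as already turned to 1 direction, which is an assumption and not proved. Of 171 spots with no gene listed and a ratio of at least 0.6 in size on every array, 163 alternated in sign with the dye orientation and 0 kept 1 sign. A dye effect in turned ratios would give this, and so would a line difference in unturned dye ratios, so the count cannot decide. At an unadjusted p under 0.05 in limma were 303 positive and 391 negative of 19088 genes as read, and 902 and 812 with the sign of replicates 2 and 4 turned. Scanner intensities were not used here, so how far spots stood above background is unknown, and precision is limited by the 4 arrays. Of 45220 spots, 33653 had 1 gene in the platform annotation, 56 had several and 11511 had none. RefSeq's GRCm38.p6 table gave current symbols by gene ID for 18966 of 19088 genes.

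The spots of a gene were averaged on each array. All genes were fitted with lmFit and eBayes of limma 3.58.1 (R 4.3.3), the terms being the mean ratio and the dye orientation. Benjamini-Hochberg adjustment ran over all genes. SDs are over 4 arrays and include the dye effect. The fit was tested on simulated data, in which changes of the size of the kinesin means did not pass the adjusted threshold. Alternatives left out the dye term, turned the sign of 2 arrays, took medians over spots, kept never dim spots, scaled the arrays or left out a replicate. Leaving Kif18b, Kif2a and Kif2b, or Kifap3 and Kif21b, out of the other kinesins was chosen after seeing the data.

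The members and lists were chosen with earlier results of these data known. Genes named singly were all mitotic kinesins, the main transport motors, members with an unadjusted p under 0.05 or 1 sign on all arrays, the 3 others of largest mean on each side, and set partners. Klc4, Cenpe and the cell type markers given with values were named after their values were seen, and so was the split of Kif1b by transcript. The replicates are described as biological in the labels.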

Additional observations from a re-analysis of the deposited data

Results flagged for a closer look

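In 2 of 41 named genes and 1 of 6 list values, 1 array lay far from the other 3 by Dixon's criterion for 4 samples, which chance meets in about 1 of 20 groups. Prc1, the midzone crosslinker, had 0.63 on replicate 4, with the other arrays at 0.22 to 0.27. The leukocyte marker Lyz2 had -0.61 on replicate 2, with the other arrays at -0.23 to -0.22. The list mean of proliferation genes was 0.48 on replicate 1, with the other arrays at 0.09 to 0.11.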

How the results depend on the processing

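In limma 0 kinesins passed the adjusted threshold under any alternative, which says nothing about stability, since changes of this size did not pass it on simulated data. At an unadjusted p under 0.05 in limma there were 2 kinesins in the main fit, 1 with no dye term and 1 with never dim spots only. There were 0 with the sign of replicates 2 and 4 turned, and 0 to 7 when a replicate was left out. The 7 (Kif2c, Kif4, Kif20a, Kif22, Kif21b, Kif9 and Kifap3) came without replicate 3. Of 19088 genes, 303 positive and 391 negative were under that p in the main fit, and 743 and 836 without replicate 3. The rise without replicate 3 was thus not confined to kinesins. Without replicate 1, 634 positive and 945 negative genes were under it, with 2 kinesins among them. With the sign turned, the list mean of mitotic kinesins fell from 0.12 to 0.0090 and that of spindle partners from 0.19 to 0.054. The positive side of the mitotic kinesins thus rests on the assumed direction of the ratios. Under the other alternatives both list means were positive. Leaving out a replicate gave 0.07 to 0.18 for mitotic kinesins, -0.06 to 0.01 for the others and 0.06 to 0.24 for the difference, and with the sign turned the difference was 0.03. Proliferation genes had 0.10 without replicate 1, 0.29 without replicate 3 and 0.09 with the sign turned. Of 41 genes given with values, 19 changed sign with the ratios turned: the fitted means were -0.016 for Kif4, 0.0068 for Kif15, -0.13 for Kif18a, -0.077 for Kif20b, 0.062 for Kif5c, 0.098 for Kif3b, -0.084 for Kif3c, -0.10 for Kif17, -0.12 for Kif1a, 0.016 for Kif1b, -0.079 for Kif2a, -0.096 for Prc1, -0.032 for Kpna2, 0.028 for Klc1, 0.12 for Trak1, -0.089 for Cenpe, 0.075 for Klc4, -0.018 for Kifc5b and 0.10 for Lyz2. Taking medians over spots turned 1, Kif1c, to -0.011. Means that changed sign when a replicate was left out ranged over -0.13 to 0.27 for Kif4, -0.054 to 0.098 for Kif11, -0.067 to 0.0026 for Kif15, -0.13 to 0.35 for Kif22, -0.22 to 0.00027 for Kif3a, -0.17 to 0.030 for Kif3b, -0.037 to 0.10 for Kif3c, -0.40 to 0.23 for Kifap3, -0.097 to 0.00017 for Kif1b, -0.12 to 0.15 for Kif1c, -0.066 to 0.012 for Klc1, -0.032 to 0.060 for Rhot1 and -0.099 to 0.13 for Kifc5b. The cause was not tested. No paired analysis was possible because each array already is a pair of same-numbered cultures and the ratio is taken within it. Signal over background is unknown, and 25 of 36 kinesins had a never dim spot.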

Other observations

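Kifc5b, a gene that shares synonyms with the mitotic kinesin Kifc1 in RefSeq and whose symbol lies outside the rule, had log2 ratios of 0.22, 0.02, -0.23 and 0.05 on replicates 1 to 4, with 2 never dim spots. Its signs were those of Kif2c, Kif4, Kif20b and Kif22. Whether its probes also read Kifc1 was not tested. Kifbp, a protein that binds kinesins and keeps some of them from microtubules, had 0.13, -0.09, 0.12 and -0.07, alternating with the dye orientation.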
